A study of Mus musculus with 56 samples.

Results

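The caput and the corpus are neighbouring stretches of the epididymis, and 8 libraries compared them in young adult mice: 4 of caput and 4 of corpus epididymis, out of 56 libraries in the whole dataset. The libraries were chosen by their labels for tissue and age: the caput epididymis and corpus epididymis samples of 3-month-old C57BL/6 mice, with no treatment or engineered allele in either group. The study behind them profiled total RNA from 7 regions of the male reproductive tract at 3 and 21 months of age, with 4 mice per age. Each library was a stranded total RNA library of the paired organs of 1 mouse, and both regions were taken from the same 4 mice, after fat and loose connective tissue had been trimmed away. The initial segment, which lies upstream of the caput, had been separated and sequenced on its own. The 3-month initial segment and cauda libraries and the 21-month caput and corpus libraries are used below for comparison. Libraries are named by region and number, and the number is a name only, since no source ties it to a mouse.

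Sperm leave the testis unable to fertilise and mature while they pass along the epididymis, a single coiled tube whose lining secretes proteins into the lumen and moves water, ions and nutrients across itself. The lining does not do this uniformly: each stretch of the duct has its own set of secreted proteins, many of them members of families that duplicated into clusters on the chromosomes. The caput is known for much of the protein secretion and for signals arriving from the testis, and the corpus for later sperm-coating proteins.

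Library totals ran from 13109573 to 18105867 counts, and 24560 to 27641 genes had counts. Libraries of the same region resembled each other more than libraries of different regions: across genes, log2 levels correlated at 0.959 to 0.984 within caput, 0.976 to 0.985 within corpus and 0.881 to 0.918 between the regions. Gm42418, a transcript overlapping ribosomal RNA, took 49.7% of caput library 2, against 6.54 to 9.49% of the other caput libraries and 10.4 to 26.3% of the corpus libraries. Mitochondrial genes took 0.806 to 5.83% of the caput libraries, with caput library 2 the highest, and 3.33 to 10.4% of the corpus libraries. At 21 months their share was 1.28 to 1.72% in caput and 3.81 to 6.88% in corpus, with no overlap. Levels below are CPM, the reads of a gene relative to all reads of its library, scaled with TMM factors, which offset such a dominant transcript. Both regions held epididymal epithelium by the high levels of Adam7, an epididymal membrane protease, at 4427 to 6447 CPM in caput and 3002 to 4471 CPM in corpus. Markers of other cells moved with region. The summed level of 8 adipocyte markers was 3.63 to 20.9 CPM in caput and 42.8 to 194 CPM in corpus, and all 8 were called higher in corpus. The summed level of the red blood cell markers was 8.11 to 15.03 and 58.7 to 72.7 CPM, that of 10 macrophage markers 134 to 150 and 243 to 296 CPM, that of 10 fibroblast markers 801 to 1523 and 1441 to 2714 CPM, and that of 12 germ cell markers 245 to 353 and 449 to 616 CPM. Smooth muscle ran the other way, with 11 markers summing to 1405 to 1805 CPM in caput and 809 to 1177 CPM in corpus. The sum of the 9 initial segment markers was 2194, 2342 and 2307 CPM in caput libraries 1, 2 and 4 and 5175 CPM in library 3, and 21.9 to 34.2 CPM in corpus. The part of these markers, and of the mitochondrial share, in the results was not tested. In whole tissue, fewer cells of a type and less RNA per cell cannot be told apart.

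The regions differed in both directions. Of 25585 genes with at least 10 counts over the 8 libraries, 3192 were higher in caput and 3036 were higher in corpus by edgeR's quasi-likelihood test (Benjamini-Hochberg adjusted p below 0.05 and at least a 2-fold difference), which is 12.5% and 11.9% of the genes tested. The median log2 fold change, given throughout as corpus minus caput, was 0.01 after TMM scaling, which centres most genes near 0. Among the calls, 753 in caput and 484 in corpus passed 16-fold. Few genes carried much of the RNA: 31 of the caput calls reached 1000 CPM in caput and 25 of the corpus calls reached it in corpus. Without Gm42418, the genes called for caput made up 21.3 to 23.2% of the counts of a caput library and 2.77 to 3.58% of those of a corpus library. The genes called for corpus made up 22.9 to 25.4% of corpus counts and 5.84 to 7.04% of caput counts. Against a background of 17.6% and 18.8% of tested genes whose 4 caput values all lay above, or all below, the 4 corpus values, 2719 of the caput calls and 2754 of the corpus calls did not overlap.

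**Figure D1:**
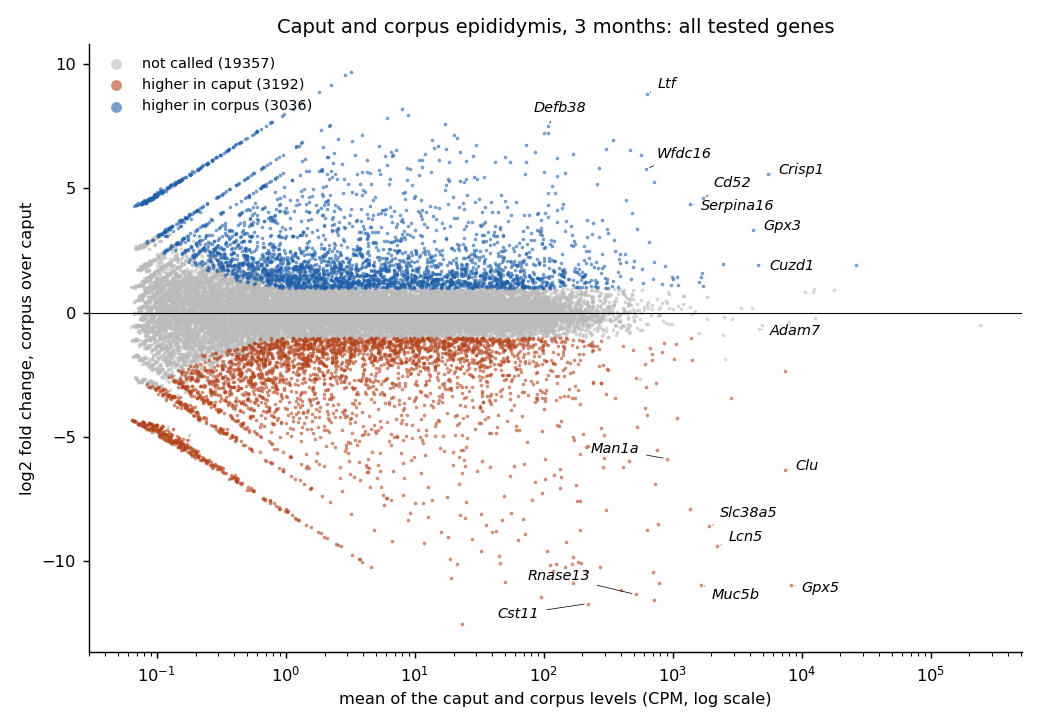
Each point is 1 of the 25585 tested genes, with the mean of the caput and corpus levels (CPM, log scale) on the x axis and the log2 fold change of corpus over caput on the y axis. The 3192 genes called higher in caput lie below 0, the 3036 called higher in corpus lie above it, and Gpx5, Clu, Crisp1 and Cuzd1 are labelled among the most abundant calls.

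Many genes in lists of secreted protein families differed between the regions. The lists take in whole families, so they also hold enzymes that stay in the cell, such as catalase, glutathione transferases and the lysosomal Man2b1. Of 338 tested members of 11 lists of secreted and sperm-coating proteins, 88 were higher in caput (26.0%) and 104 were higher in corpus (30.8%), beside 12.5% and 11.9% of all tested genes. The caput calls had a median absolute log2 fold change of 5.49 and 52 of them passed 16-fold. The corpus calls had a median of 2.29, and 30 passed 16-fold. Over all genes the corresponding medians were 2.39 and 1.92. Of 650 tested members of 8 lists of carriers, channels, pumps, endocytic receptors and junction proteins, 122 were higher in caput (18.8%) and 130 in corpus, with medians of 2.09 and 1.98. These lists were read as descriptions and no set test was run on them.

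**Figure D2:**
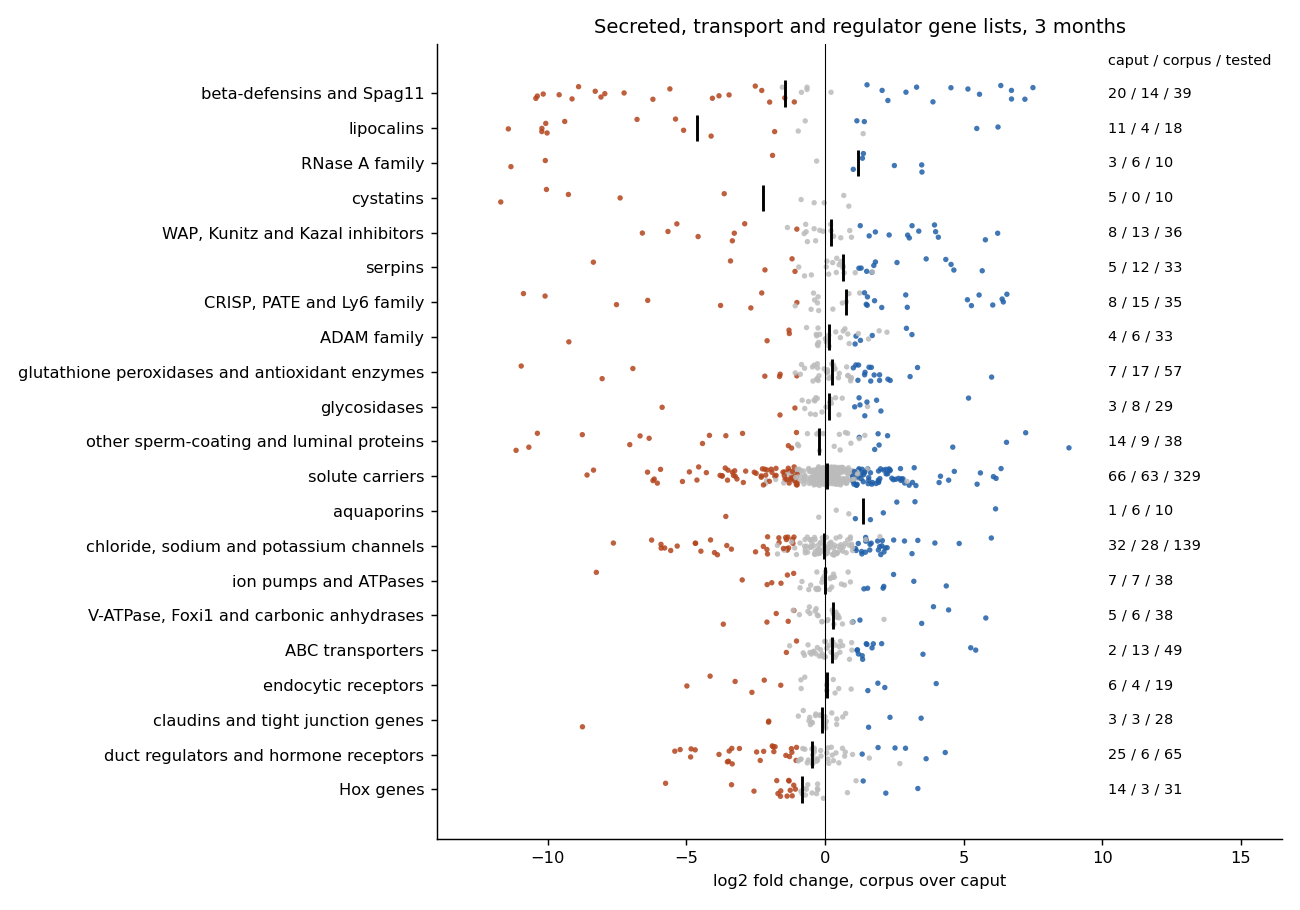
Each point is 1 tested gene of a list, placed by its log2 fold change of corpus over caput on the x axis, red where called higher in caput, blue where called higher in corpus and grey where not called, with the list median as a black bar. The numbers at the right give genes higher in caput, genes higher in corpus and genes tested, from 20, 14 and 39 for the beta-defensins to 14, 3 and 31 for the Hox genes.

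The most abundant secreted antioxidant changed identity between the regions. Gpx5, a glutathione peroxidase that the epididymis secretes and that lacks selenocysteine, stood at 14924, 16455, 20012 and 14626 CPM in the caput libraries and at 33.2, 0.193, 0.242 and 0.210 CPM in the corpus libraries. The groups did not overlap, and corpus library 1 stood far above the other 3 corpus libraries. The log2 fold change was -10.96 (SE 1.42, adjusted p = 1.4e-05). Gpx3, the selenium-dependent secreted glutathione peroxidase, went the other way, with 963, 752, 570.2 and 743 CPM in caput and 8607, 8105, 6476 and 7224 CPM in corpus, a 10.04-fold difference (log2 fold change 3.34, SE 0.20, adjusted p = 3.0e-09). Per kilobase of all annotated exons of the gene, merged, Gpx5 stood at 9859 CPM in caput and Gpx3 at 4194 CPM in corpus. Both thus ranked as major transcripts in their own region. The list of 57 tested glutathione peroxidases and other antioxidant enzymes held 7 caput calls (12.3%) and 17 corpus calls (29.8%), beside 12.5% and 11.9% of all tested genes. Prdx6, a peroxiredoxin, was not called, at 360.4 ± 56.4 and 294 ± 35.5 CPM (SD, n = 4 each).

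The promoters of this pair are shown because the regional switch was between them and both are transcribed at very high levels. The windows run from 250 bases before to 50 bases after the annotated start and are credited to RefSeq, build GRCm38.p6. Capitals mark the letters AGAACA, a hexamer known to bind steroid hormone receptors, and AGGAAG, an ETS site of the PEA3 kind, on either strand. PEA3 factors are known for the proximal duct.
Gpx5 chr13:21292637-21292936, minus strand: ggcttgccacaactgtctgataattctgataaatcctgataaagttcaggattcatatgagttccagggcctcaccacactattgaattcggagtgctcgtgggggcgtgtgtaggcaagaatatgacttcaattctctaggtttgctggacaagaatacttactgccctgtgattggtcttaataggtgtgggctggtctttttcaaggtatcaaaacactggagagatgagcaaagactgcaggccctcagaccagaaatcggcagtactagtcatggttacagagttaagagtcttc
Gpx3 chr11:54902604-54902903, plus strand: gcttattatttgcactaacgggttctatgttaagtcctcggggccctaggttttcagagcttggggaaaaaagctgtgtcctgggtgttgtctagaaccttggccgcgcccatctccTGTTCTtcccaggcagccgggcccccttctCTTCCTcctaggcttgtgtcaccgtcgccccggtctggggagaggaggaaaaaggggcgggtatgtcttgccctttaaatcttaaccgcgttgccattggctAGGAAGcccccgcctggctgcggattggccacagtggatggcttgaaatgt
The Gpx5 window held neither motif, and the Gpx3 window held 1 AGAACA hexamer and 2 ETS sites. Across 27025 RefSeq promoters of this length, 19.0% held AGAACA and 35.1% held AGGAAG. No match says only that these letters are not in this window.

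Other major luminal proteins of the caput fell steeply into the corpus. Clu, a secreted chaperone that coats sperm, stood at 13193, 16098, 13399 and 15905 CPM in caput and at 165, 225, 186 and 139 CPM in corpus, an 81.8-fold difference with tight groups (log2 fold change -6.34, SE 0.23, adjusted p = 2.0e-11). Muc5b, a gel-forming mucin, went from 3318 ± 762 to 1.72 ± 1.91 CPM (SD, n = 4 each). Ace, the angiotensin-converting enzyme shed into the lumen, went from 2063 ± 196 to 109 ± 18.8 CPM. Mfge8, a secreted adhesion protein, was 7.93-fold higher in caput, and its highest caput value, 1780 CPM, was in library 3. Rnase13, Teddm1b and Epp13 are further caput-rich transcripts of the duct, at 1031 ± 432, 798 ± 88.9 and 1270 ± 224 CPM in caput and 0.421 ± 0.719, 0.373 ± 0.746 and 2.95 ± 3.91 CPM in corpus. Glul, the enzyme that makes glutamine and no secreted protein, was 10.97-fold higher in caput.

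The corpus had its own major luminal proteins. Cuzd1, a CUB and zona pellucida domain protein, stood at 1931, 1621, 2032 and 2213 CPM in caput and 7600, 7161, 6533 and 7852 CPM in corpus (log2 fold change 1.92, SE 0.17, adjusted p = 2.5e-07). Cuzd1 was thus abundant in both regions, with no overlap. Ltf, the iron-binding lactotransferrin, was nearly absent upstream: 7.20, 1.14, 0.824 and 1.44 CPM in caput against 1469, 1347, 1062 and 1157 CPM in corpus, a 475-fold difference (log2 fold change 8.80, SE 0.56, adjusted p = 4.6e-09). Cd52, whose glycosylphosphatidylinositol-anchored peptide is passed to sperm, rose from 136 ± 32.6 to 3288 ± 395 CPM. Ces5a, a secreted carboxylesterase, was 3.84-fold higher in corpus, and Npc2, a sterol carrier, 2.34-fold. Of 38 tested members of the list of other sperm-coating and luminal proteins, 14 were higher in caput (36.8%) and 9 in corpus (23.7%), beside 12.5% and 11.9% of all tested genes.

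**Figure D3:**
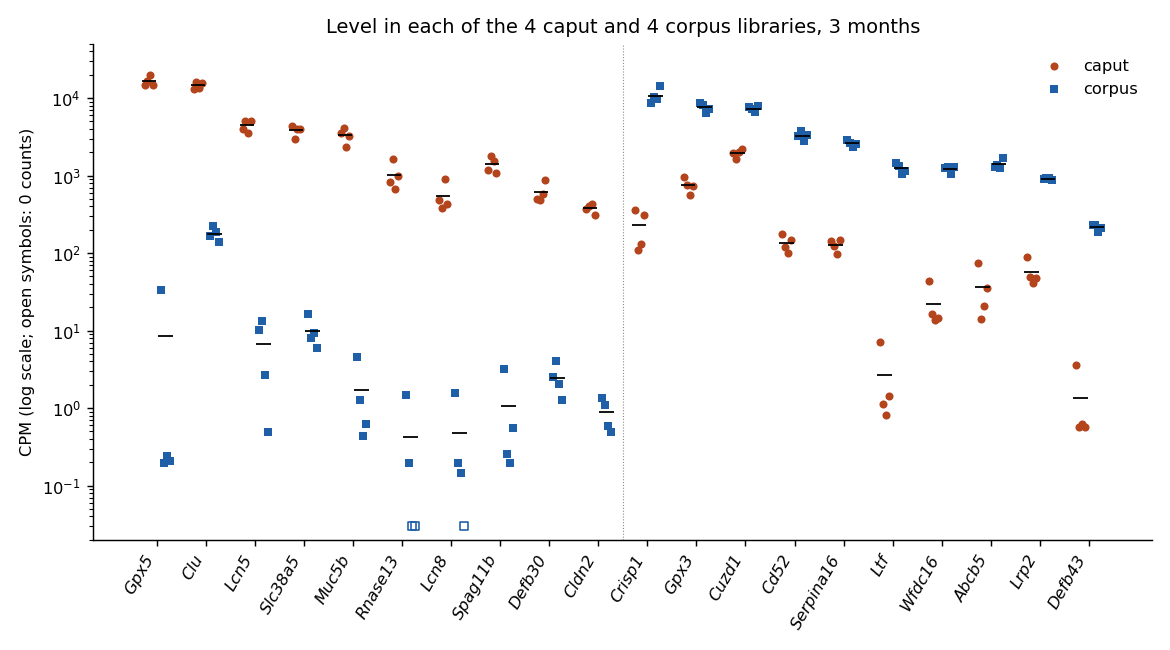
Each symbol is 1 library, with circles for the 4 caput and squares for the 4 corpus libraries, the level in CPM on a log axis, black bars for group means and open symbols for 0 counts. The 10 genes at the left were higher in caput and the 10 at the right in corpus; the single high corpus value of Gpx5 (33.2 CPM) and the single high caput value of Ltf (7.20 CPM) both came from libraries numbered 1.

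Lipocalins are small secreted carriers of hydrophobic molecules. Of 18 tested, 11 were higher in caput and 4 in corpus, beside 12.5% and 11.9% of all tested genes, and the median log2 fold change was -4.60, or -3.25 with the 5 genes that had 0 counts in 1 region set at their bound. Lcn5, which binds retinoic acid, stood at 4041, 5106, 3599 and 5007 CPM in caput and at 10.3, 13.1, 2.71 and 0.490 CPM in corpus. Lcn8 had its summit upstream, with 547 ± 239.6 CPM in caput against 7118 ± 728 CPM in the initial segment, and caput library 3 was highest at 901 CPM. Lcn10 showed the same order, with 192 ± 89.3 CPM in caput, 1160 ± 58.1 CPM in the initial segment and counts in only 1 corpus library. Lcn2, which binds iron siderophores, was 17.4-fold higher in caput. Ptgds, the lipocalin that makes prostaglandin D2, was the exception among abundant members, at 596 ± 118 CPM in caput and 1584 ± 272 CPM in corpus (log2 fold change 1.42, SE 0.18, adjusted p = 9.4e-06). The other 3 corpus calls, Orm1, Mup5 and Rbp4, had means of at most 2.15 CPM in corpus. Orm1 is named after its value was seen, and Rbp4 lost its call without corpus library 3 (log2 fold change 0.93). Of the caput calls, Obp2b, Mup4 and Mup6 averaged 0.247, 0.828 and 4.74 CPM in caput. These are also named after their values were seen. The family summed to 18038 to 19999 CPM in the initial segment, 7000 to 8230 CPM in caput and 1475 to 2075 CPM in corpus, and 9 of the 11 caput calls were highest in the initial segment.

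Beta-defensins are small cationic peptides that kill microbes and, in the epididymis, coat sperm, and this family split between the regions. Of 39 tested, counting the related Spag11 genes, 20 were higher in caput (51.3%) and 14 in corpus (35.9%), beside 12.5% and 11.9% of all tested genes, which left 5 without a call. Among those higher in caput, Defb30 stood at 504, 484, 579 and 874 CPM in caput and 2.51, 4.05, 2.03 and 1.26 CPM in corpus (log2 fold change -7.94, SE 0.33, adjusted p = 5.1e-11). Defb20 was at 819.8 ± 448 CPM in caput, with 1487 CPM in library 3 and 524 to 642 CPM in the others, and at 11.03 ± 3.53 CPM in corpus. Spag11b, an antimicrobial and sperm-binding peptide, was 1330-fold higher in caput. Among those higher in corpus, Defb22, a sperm surface glycoprotein, stood at 47.4, 0.996, 0.155 and 5.01 CPM in caput and 1259, 1232, 838 and 1186 CPM in corpus (log2 fold change 6.34, SE 1.001, adjusted p = 0.00011). Defb22 had its highest level in corpus along the duct sampled, with 0.0800 ± 0.104 CPM in the initial segment and 2.43 ± 0.462 CPM in the cauda. Defb28 rose from 36.0 ± 13.2 to 840.2 ± 103 CPM and Defb38 from 1.04 ± 1.33 to 214 ± 76.5 CPM. Defb39, next to Defb38 on the chromosome, was not called, at 147 ± 38.4 and 169 ± 37.0 CPM.

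Each of the 4 larger defensin clusters held genes of both directions, with 2 changes of direction along its called genes. On chromosome 14 (chr14:62977524-63058149 in the GRCm38 annotation), Defb43 was higher in corpus, while Defb47 and Defb30 on its sides and the outer Defb48 and Defb42 were higher in caput. These log2 fold changes were 7.21 for Defb43, -8.89 for Defb47 and -7.94 for Defb30, within 80.6 kb. Defb43 stood at 3.57, 0.569, 0.618 and 0.576 CPM in caput and 234, 233, 189.6 and 209 CPM in corpus. On chromosome 2 (chr2:152459055-152623053) the 11 tested defensins included a run of 3 neighbours higher in corpus, Defb22, Defb26 and Defb28, between Defb20 and Defb29, both higher in caput. The remaining genes downstream were higher in caput apart from Defb36, which was not called. On chromosome 8, the cluster at chr8:18974940-19201545 ran from Defb40, Defb37 and Defb38 (higher in corpus) through Defb12, Spag11b and Spag11a (higher in caput) to Defb14 and Defb4 (higher in corpus), with Defb39 and Defb34 not called. Defb14 and Defb4, on which the last change in that cluster rests, averaged 4.47 and 0.343 CPM in corpus. The second cluster there, chr8:21702519-21948850, held 4 caput calls, 5 corpus calls and 1 gene without a call. Its first change of direction rests on AY761184 alone, at 0.885 CPM in caput and 0.196 CPM in corpus. Cluster members that the naming rule did not pick, such as Defb26 and Defb47, are named for their position and after their values were seen. Defensin genes resemble each other in sequence, and how reads shared between copies were assigned could not be checked in the table.

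The promoters of Defb30 and Defb43 are shown because these neighbours differ in region and both starts lie within the same short cluster. The windows, capitals and source are as above.
Defb30 chr14:63037797-63038096, minus strand: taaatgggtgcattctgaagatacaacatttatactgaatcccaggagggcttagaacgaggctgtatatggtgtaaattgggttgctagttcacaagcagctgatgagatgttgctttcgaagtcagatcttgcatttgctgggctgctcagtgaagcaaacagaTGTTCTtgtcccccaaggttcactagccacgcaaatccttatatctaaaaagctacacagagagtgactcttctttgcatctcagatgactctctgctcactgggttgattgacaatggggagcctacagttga
Defb43 chr14:63011521-63011820, plus strand: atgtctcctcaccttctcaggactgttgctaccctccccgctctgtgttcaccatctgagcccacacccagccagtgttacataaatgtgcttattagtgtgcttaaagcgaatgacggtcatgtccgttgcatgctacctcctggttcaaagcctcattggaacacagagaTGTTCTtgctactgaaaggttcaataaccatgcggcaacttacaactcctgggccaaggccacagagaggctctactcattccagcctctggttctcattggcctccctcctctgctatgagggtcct
Each window held 1 AGAACA hexamer on the strand opposite to the gene, and no AGGAAG. Its first base lay at -84 in Defb30 and at -78 in Defb43, counted from the RefSeq start as 0. In the annotation used for the cluster, Defb30 spans 63034087 to 63049960 on the minus strand, so its start there lies outside the printed window. The genes with opposite regional patterns thus carried the same letters at nearly the same distance from the RefSeq starts.

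The RNase A family, secreted ribonuclease-fold proteins several of which are sperm-maturation factors, had 3 caput and 6 corpus calls among 10 tested genes, beside 12.5% and 11.9% of all tested genes. Rnase10, needed for sperm to bind and pass the oviduct, stood at 291, 182, 626 and 230.2 CPM in caput and 1.22, 0, 0.0484 and 0 CPM in corpus (log2 fold change -10.09, SE 0.67, adjusted p = 8.2e-09). Its caput library 3 was highest, and its level in the initial segment was 4120 ± 215 CPM. Rnase9 stayed substantial in both regions, at 2211 ± 748 and 589.5 ± 99.5 CPM. Rnase11 stood at 5.002, 4.98, 4.53 and 6.85 CPM in caput and 63.2, 59.5, 46.7 and 71.1 CPM in corpus (log2 fold change 3.50, SE 0.18, adjusted p = 6.1e-10), and Rnase12 was 2.53-fold higher in corpus. Along the cluster at chr14:51007751-51146785, Rnase10 and Rnase9 came first and were higher in caput, and Rnase11, Rnase12, Rnase4, Ang and Rnase1 followed and were higher in corpus, with Rnase6 not called between Ang and Rnase1. So the direction changed once along these 139 kb. Rnase4 and Ang overlap in the annotation, and their reads cannot be fully separated.

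The promoters of Rnase10 and Rnase11 are shown as the members on the 2 sides of that change.
Rnase10 chr14:51007501-51007800, plus strand: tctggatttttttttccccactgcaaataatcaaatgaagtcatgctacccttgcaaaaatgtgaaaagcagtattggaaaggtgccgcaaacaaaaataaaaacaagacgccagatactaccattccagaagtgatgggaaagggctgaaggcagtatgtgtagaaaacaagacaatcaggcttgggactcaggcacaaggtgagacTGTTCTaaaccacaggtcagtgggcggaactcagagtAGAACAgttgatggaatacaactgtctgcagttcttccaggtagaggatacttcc
Rnase11 chr14:51050114-51050413, minus strand: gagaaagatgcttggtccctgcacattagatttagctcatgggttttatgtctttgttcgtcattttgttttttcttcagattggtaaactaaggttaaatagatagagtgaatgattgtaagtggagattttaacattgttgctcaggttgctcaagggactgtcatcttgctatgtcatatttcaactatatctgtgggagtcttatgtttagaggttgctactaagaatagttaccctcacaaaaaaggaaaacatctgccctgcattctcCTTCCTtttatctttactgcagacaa
The Rnase10 window held 2 AGAACA hexamers, at -42 and -5, and the Rnase11 window held none but had 1 AGGAAG at position 24 after the start. Over the secreted lists, promoters were found for 66 of the 88 genes higher in caput and for 78 of the 104 higher in corpus. AGAACA was in 33.3% of the former and 26.9% of the latter. It was in 24.5% of 106 genes of these lists that were not called, beside 14.4% of the 14720 tested genes with a promoter. AGGAAG was in 33.3% of the caput genes, in 39 of the 78 corpus genes and in 35.8% of those not called, beside 34.0% of all tested genes. These shares are descriptions of the letters in the windows.

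**Figure D4:**
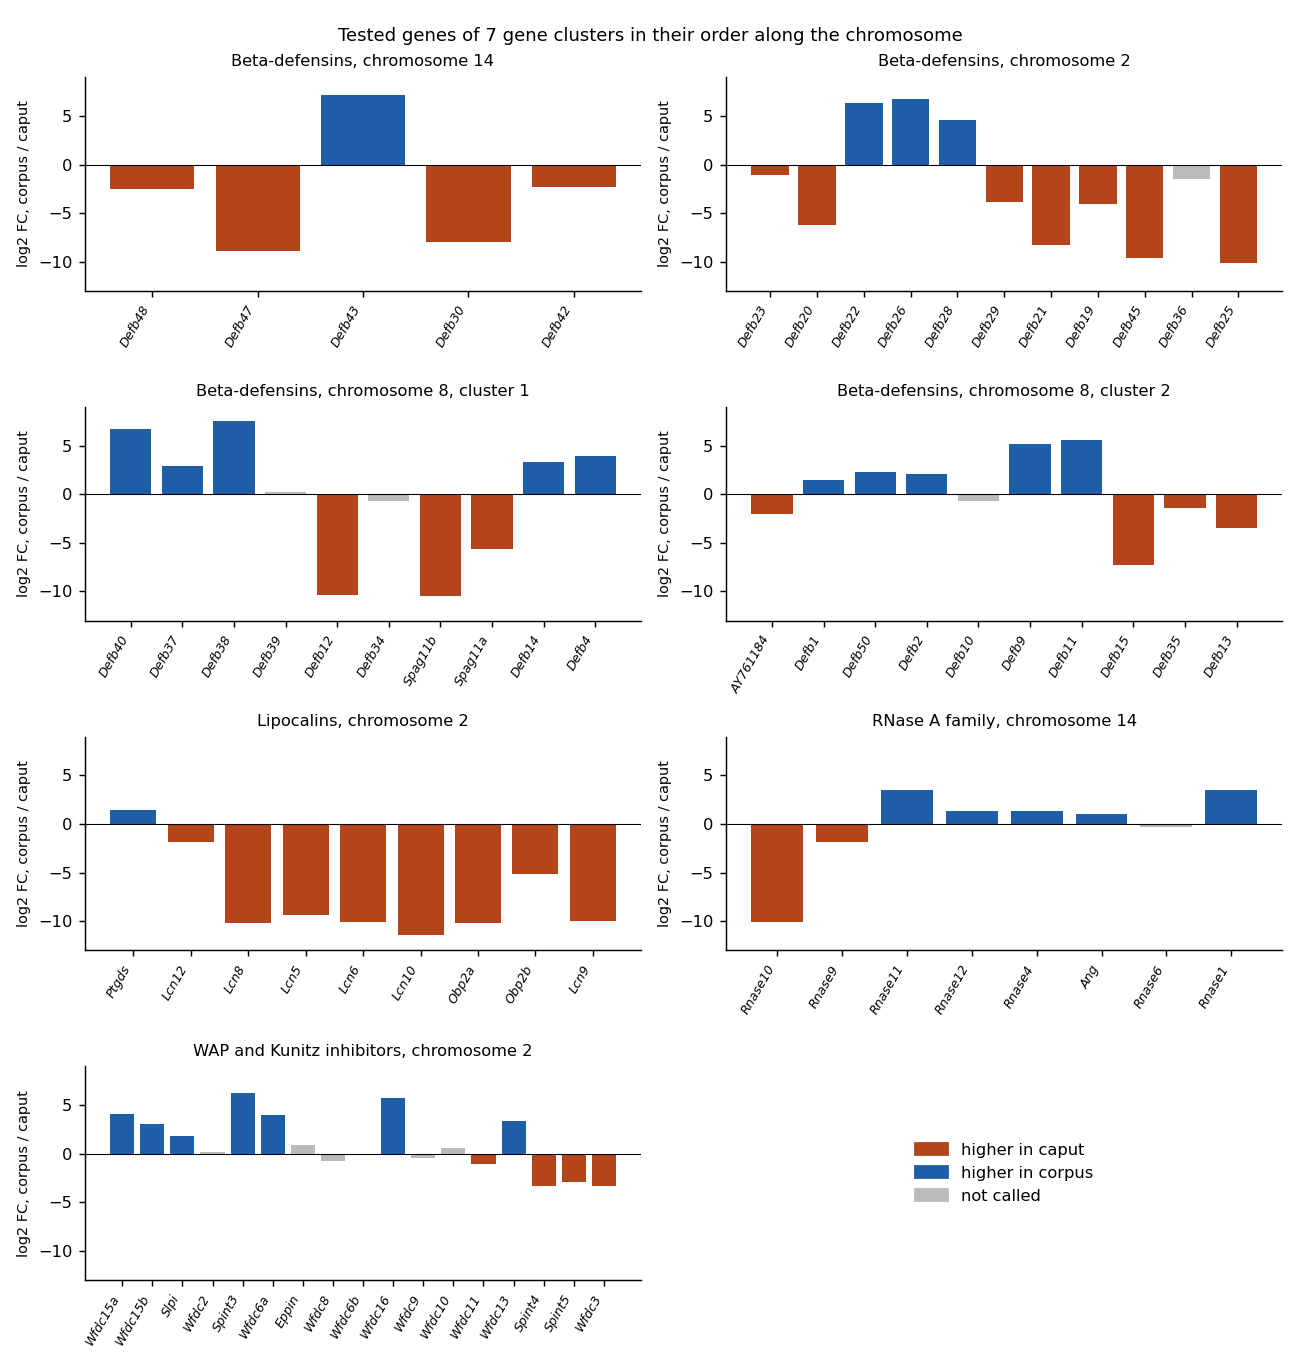
Bars give the log2 fold change of corpus over caput (y axis) for the tested genes of 7 clusters, in their order along the chromosome, with red for higher in caput, blue for higher in corpus and grey for not called. The direction changes within the 4 beta-defensin clusters and the RNase A cluster, while 8 of the 9 lipocalins point to caput.

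Protease inhibitors were called in both directions. All 5 called cystatins, inhibitors of cysteine proteases, were higher in caput, of 10 tested, beside 12.5% of all tested genes. Cst11 went from 152, 497, 829.7 and 284 CPM in caput to 0.542, 0, 0 and 0 CPM in corpus, and Cst8 from 97.8 ± 52.4 to 0.582 ± 0.178 CPM. Both were highest in the initial segment, at 2435 ± 126 and 1385 ± 71.8 CPM, and the family summed to 8347 to 9746 CPM there against 711 to 1989 CPM in caput. Cst3, the cystatin of most tissues and a member of the same cluster as Cst8, did not pass the test, at 194 ± 16.49 and 189 ± 38.1 CPM. WAP, Kunitz and Kazal inhibitors, which block serine proteases, had 8 caput (22.2%) and 13 corpus calls (36.1%) among 36 tested, beside 12.5% and 11.9% of all tested genes. Wfdc16 stood at 43.8, 16.2, 13.7 and 14.7 CPM in caput and 1272, 1286, 1053 and 1274 CPM in corpus (log2 fold change 5.79, SE 0.36, adjusted p = 3.7e-09). Spint3, a Kunitz inhibitor, rose from 3.07 ± 3.60 to 249.9 ± 23.7 CPM, and Spink8, a Kazal inhibitor abundant in both regions, from 850.0 ± 159.8 to 2550 ± 358 CPM. Going the other way, Spink5, an inhibitor of kallikreins, was 24.2-fold higher in caput and Spink2, an acrosin inhibitor, 51.5-fold. In the WAP and Kunitz cluster at chr2:164198863-164745931, 7 of 17 tested genes were higher in corpus and 4 in caput, and the last 3 in chromosomal order, Spint4, Spint5 and Wfdc3, were all higher in caput.

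Serpins, a further class of serine protease inhibitors, had 5 caput calls (15.2%) and 12 corpus calls (36.4%) among 33 tested, beside 12.5% and 11.9% of all tested genes. The caput count fell to 2 without caput library 2 or corpus library 1 and to 3 without caput library 3 or 4. Serpinf2 and Agt (angiotensinogen, named after its values were seen) had means of 94.1 and 59.4 CPM in caput and the other 3 caput calls at most 1.66 CPM. Of the corpus calls, Serpinb2, Serpina3b, Serpina3g and Serpina7 averaged 0.189, 0.291, 1.99 and 2.36 CPM in corpus. They are also named after their values were seen. Serpina16 stood at 144, 124, 97.96 and 147 CPM in caput and 2922, 2616, 2325 and 2562 CPM in corpus (log2 fold change 4.36, SE 0.19, adjusted p = 7.9e-11), and it had 0 counts in all 4 initial segment libraries. Serpina1f, its neighbour on chromosome 12, was level between the groups at 1116 ± 183 and 1214 ± 71.6 CPM and was not called, though its initial segment level was 0.567 ± 0.484 CPM. Serpinf2, the antiplasmin, was 327-fold higher in caput.

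CRISP, PATE and Ly6 proteins are cysteine-rich proteins of the sperm surface and the luminal fluid. Of 35 tested in their list, 8 were higher in caput (22.9%) and 15 in corpus (42.9%), beside 12.5% and 11.9% of all genes. The list also held seminal vesicle secretion genes. Of these, Svs1 and Svs5, named after their values were seen, were corpus calls, averaging 4.73 and 0.295 CPM there. Crisp1, the major epididymal CRISP and a sperm-egg fusion protein, stood at 365, 109.5, 133 and 311 CPM in caput and 8684, 10398, 9690 and 14200 CPM in corpus (log2 fold change 5.56, SE 0.40, adjusted p = 1.9e-08). Crisp1 alone had a higher mean in corpus than any other gene of the list, and the list summed to 2360 to 3021 CPM in caput and 11682 to 17675 CPM in corpus. Crisp4, the other epididymal member, did not pass the test at 114 ± 34.0 and 93.2 ± 23.9 CPM. All 4 tested Pate genes at chr9:35570284-35690318 were higher in corpus, with log2 fold changes of 6.39 for Pate1, 6.05 for Pate3, 2.97 for Pate4 and 2.91 for Pate2, and were looked up for their position after their values were seen. The Ly6 genes divided by chromosome. On chromosome 15, Ly6f stood at 16.8, 1.56, 2.16 and 3.57 CPM in caput and 601, 623, 557 and 621 CPM in corpus, and with Ly6f 5 of the 11 tested genes of its cluster were higher in corpus and none in caput. On chromosome 17, 4 of 5 tested genes were higher in caput, led by Ly6g5c at 248 ± 132 CPM against 0.223 ± 0.131 CPM.

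The binder of sperm proteins, which bind phospholipids of the sperm membrane, are a closely linked pair with opposite directions. Bsph1 had 20.8, 34.6, 36.7 and 60.6 CPM in caput and counts in only 1 corpus library, and Bsph2 had 3.67, 0.142, 0.206 and 0.633 CPM in caput against 171, 184, 199.8 and 246 CPM in corpus (log2 fold change 7.24, SE 0.53, adjusted p = 2.7e-08). Both lie on chromosome 7, at chr7:13450841-13473449 and chr7:13554864-13571067.

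ADAM proteases and glycosidases, some of which act on the sperm surface, were also called in both directions, beside 12.5% and 11.9% of all genes. The ADAM family had 4 caput (12.1%) and 6 corpus calls (18.2%) among 33 tested. Of the corpus calls, Adam23 averaged 73.2 CPM in corpus and the other 5 at most 5.69 CPM, among them Adam2, Adam3 and Adam32, known as genes of germ cells and named with Adam23 after their values were seen. The 12 germ cell markers summed to 301 CPM in caput and 540.3 CPM in corpus on average, and their part in these calls was not tested. Adam28 was 594-fold higher in caput (297 ± 142 against 0.500 ± 0.617 CPM) and highest in the initial segment (4603 ± 759 CPM), whereas Adam7 was not called, with a log2 fold change of -0.66 (SE 0.19, adjusted p = 0.012) that fell short of 2-fold. Glycosidases, which trim sugars from glycoproteins, had 3 caput (10.3%) and 8 corpus calls (27.6%) among 29 tested. Man1a, an alpha-mannosidase of the Golgi, was 59.2-fold higher in caput, and Man2b1, the lysosomal alpha-mannosidase, 4.03-fold higher in corpus. Glb1l3, a beta-galactosidase-like protein, stood at 33.5, 5.26, 5.98 and 10.1 CPM in caput and 449, 581, 457 and 544 CPM in corpus.

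Transport genes changed carrier by carrier, with solute carriers split nearly evenly. Of 329 tested solute carriers, 66 were higher in caput (20.1%) and 63 in corpus (19.1%), beside 12.5% and 11.9% of all tested genes. The 3 most abundant caput calls carry amino acids. Slc38a5, which moves glutamine and other neutral amino acids, stood at 4417, 2985, 3967 and 3980 CPM in caput and 16.47, 8.10, 9.44 and 5.88 CPM in corpus (log2 fold change -8.58, SE 0.33, adjusted p = 3.0e-11). Slc16a10, which moves aromatic amino acids, stood at 621, 528, 496 and 613 CPM against 7.32, 7.52, 7.50 and 7.98 CPM, with little spread in either group. Slc7a5, the large neutral amino acid carrier, was 24.8-fold higher in caput, and its partner chain Slc3a2, looked up for that reason, had a log2 fold change of -1.13. On the corpus side, Slc52a3, a riboflavin carrier, rose from 5.34 ± 3.98 to 249.9 ± 20.8 CPM and Slc35f2 was 5.04-fold higher. Slc22a5, the carnitine carrier, was looked up after the values were seen because carnitine accumulates in epididymal fluid. Its mean was 27.1 CPM in caput and 264 CPM in corpus, with a log2 fold change of 3.28.

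Of 10 tested aquaporins, the water channels, 6 were higher in corpus and 1 in caput, beside 11.9% and 12.5% of all genes. Aqp9, the main aquaporin of principal cells, which also passes glycerol and other small solutes, stood at 76.9, 56.2, 66.1 and 75.4 CPM in caput and 211, 217, 213 and 208 CPM in corpus (log2 fold change 1.64, SE 0.14, adjusted p = 1.0e-07). Aqp1, the aquaporin of vessels and efferent ducts, did not pass the test (14.6 ± 3.01 and 19.3 ± 8.15 CPM). The corpus calls other than Aqp9 had low levels, such as Aqp5 at 2.84 ± 1.196 CPM and Aqp11 at 25.7 ± 1.07 CPM in corpus (log2 fold change 0.98, no call, without caput library 2), and the caput call, Aqp6, had 8.90 ± 4.99 CPM in caput.

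Ion channels had 32 caput and 28 corpus calls (20.1%) among 139 tested, beside 12.5% and 11.9% of all tested genes. Ano1, a calcium-activated chloride channel, was higher in caput, at 354, 288, 293 and 251 CPM against 76.9, 74.9, 71.1 and 57.0 CPM. Kcnc4, a voltage-gated potassium channel, was 3.08-fold higher in corpus, and Clcn7, the lysosomal chloride exchanger, 2.76-fold. Clcn5, the endosomal exchanger, was 1.87-fold higher in corpus (adjusted p = 4.7e-05) and so missed the 2-fold limit. Ion pumps had 7 calls each way among 38 tested (18.4%). Among plasma membrane calcium pumps, Atp2b4 fell from 1250 ± 112 to 412 ± 24.4 CPM, and Atp2b3 rose from 191 ± 49.9 to 811 ± 32.3 CPM. Both were thus present in each region. Atp2b1, the widespread member of that family, was 2.59-fold higher in caput. Atp13a4, a P-type ATPase, stood at 8.68 to 17.7 CPM in caput and 252 to 281 CPM in corpus.

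Acid and base transport genes, which keep the lumen acidic, had 5 caput (13.2%) and 6 corpus calls (15.8%) among 38 tested subunits of the proton pump and carbonic anhydrases, beside 12.5% and 11.9% of all tested genes. The corpus calls among them were large. Car4, a membrane-anchored carbonic anhydrase, stood at 20.3, 5.41, 3.30 and 8.29 CPM in caput and 631, 486, 453 and 551 CPM in corpus (log2 fold change 5.80, SE 0.44, adjusted p = 3.4e-08). Car2, the cytosolic enzyme, was 15.2-fold higher in corpus and Atp6v1c2, a subunit variant of the proton pump, 22.5-fold, while Car12 was 2.54-fold higher in caput. Foxi1, the transcription factor of clear cells, the acid-secreting cells of the duct, was not called, at 65.9 ± 8.03 and 42.5 ± 4.98 CPM. The clear cell markers, Foxi1 and Atp6v1c2 among them, summed to 215 to 253 CPM in caput and 311 to 321 CPM in corpus. Of these 8 markers, 2 were called higher in corpus and 6 were not called, with a median log2 fold change of 0.18. No overlap was seen for 2 markers toward caput and for 2 toward corpus.

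ABC transporters had 2 caput calls (4.08%) and 13 corpus calls (26.5%) among 49 tested, beside 12.5% and 11.9% of all tested genes, and 1 of the caput calls was lost without caput library 4 or corpus library 1 or 2. Abcb5, a multidrug-resistance type transporter, stood at 75.0, 14.1, 21.0 and 35.3 CPM in caput and 1274, 1392, 1242 and 1676 CPM in corpus (log2 fold change 5.26, SE 0.42, adjusted p = 7.6e-08), and Abca3, a phospholipid transporter, was 2.79-fold higher in corpus. Endocytic receptors had 6 caput (31.6%) and 4 corpus calls (21.1%) among 19. Lrp2 (megalin), a scavenger receptor for luminal proteins, stood at 89.4, 48.9, 41.2 and 47.6 CPM in caput and 916, 933, 918 and 876 CPM in corpus. Dab2, the adaptor known to bind the tail of megalin, had the opposite order, at 902 ± 156 and 143 ± 17.01 CPM. Tight junction genes had 3 calls each way among 28 (10.7%), near the 12.5% and 11.9% of all genes. Cldn2, which forms a paracellular pore for cations, stood at 368, 403, 429 and 315 CPM in caput and 1.36, 1.09, 0.581 and 0.490 CPM in corpus (log2 fold change -8.75, SE 0.26, adjusted p = 3.3e-12), and Cldn3, a sealing claudin, was level at 224 ± 32.0 and 223 ± 41.2 CPM.

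Of 65 tested transcription factors, receptors and hormone enzymes of the duct, 25 were higher in caput (38.5%) and 6 in corpus (9.23%), beside 12.5% and 11.9% of all tested genes. Of the 25, 18 had their highest mean in the initial segment and 4 in caput. Ros1, the receptor tyrosine kinase that the proximal duct needs to form its initial segment, stood at 387, 406, 426 and 439 CPM in caput and 10.51, 8.81, 10.02 and 9.10 CPM in corpus. The PEA3 factors Etv4, Etv5 and Etv1, looked up as a family, had log2 fold changes of -3.82, -2.46 and -1.87, and Runx2 and Runx1 of -5.22 and -3.34. The estrogen receptors Esr1 and Esr2 were both higher in caput (-1.21 and -2.33). Of the corpus calls, Cyp17a1, an enzyme of androgen synthesis, stood at 15.3, 8.82, 7.94 and 8.58 CPM in caput and 219, 189, 201 and 212 CPM in corpus. Srd5a1, which makes dihydrotestosterone, was 5.86-fold higher in corpus and about as high in the initial segment (40.1 ± 3.53 CPM) as in corpus (42.9 ± 2.70 CPM).

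Hox genes, which set position along the body axis, had 14 caput (45.2%) and 3 corpus calls (9.68%) among 31 tested, beside 12.5% and 11.9% of all tested genes. The 3 corpus calls were Hoxa9, Hoxa10 and Hoxc10, and the 14 caput calls all had paralogue numbers from 1 to 9. Hoxb9 stood at 55.4, 60.6, 51.5 and 49.5 CPM in caput and 7.79, 12.8, 9.15 and 6.58 CPM in corpus. Hoxa9, of the same paralogue group, went the other way at 3.26 ± 0.828 and 14.4 ± 1.76 CPM, and Hoxc10 rose from 0.170 ± 0.0406 to 1.81 ± 0.356 CPM. The number pattern was seen in the data and was not tested. Of the 14 caput calls, 8 were also called at 21 months, where 71.7% of all caput calls tested at both ages were.

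The initial segment and cauda placed the switch on the duct as a whole. Of the 3192 caput calls, 2071 (64.9%) had their highest mean of the 4 regions in caput, 978 (30.6%) in the initial segment and 143 (4.48%) in cauda. Of the 3036 corpus calls, 2001 (65.9%) peaked in corpus, 937 (30.9%) in cauda and 98 (3.23%) in the initial segment. Since the calls were made on caput and corpus, these shares describe the calls and are not tested. Among genes of the secreted lists, 43 of 88 caput calls were highest in the initial segment and 38 of 104 corpus calls in cauda. In the cystatins all 5 caput calls, and in the lipocalins 9 of 11, peaked in the initial segment, whereas all 8 caput calls of the WAP, Kunitz and Kazal list peaked in caput.

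Single genes took different courses along the duct. Clu was low in the initial segment (594 ± 366 CPM), high in caput, low in corpus and higher again in cauda (2428 ± 1149 CPM). Lcn5 and Muc5b were peaks of the caput alone among these regions, with 30.1 ± 10.6 and 2.27 ± 0.965 CPM in the initial segment and 2.25 ± 2.67 and 0.955 ± 1.07 CPM in cauda. Car4, Cyp17a1 and Wfdc13 were the corresponding corpus peaks, with 2.59 ± 0.810, 4.61 ± 1.71 and 29.2 ± 6.78 CPM in cauda. Crisp1, Ltf, Cd52 and Lrp2 stayed high in cauda, at 12743 ± 2823, 1406 ± 456, 4066 ± 1002 and 1408 ± 356 CPM. For these 4 genes the corpus and cauda ranges overlapped or lay close, and the corpus to cauda step was not tested.

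**Figure D5:**
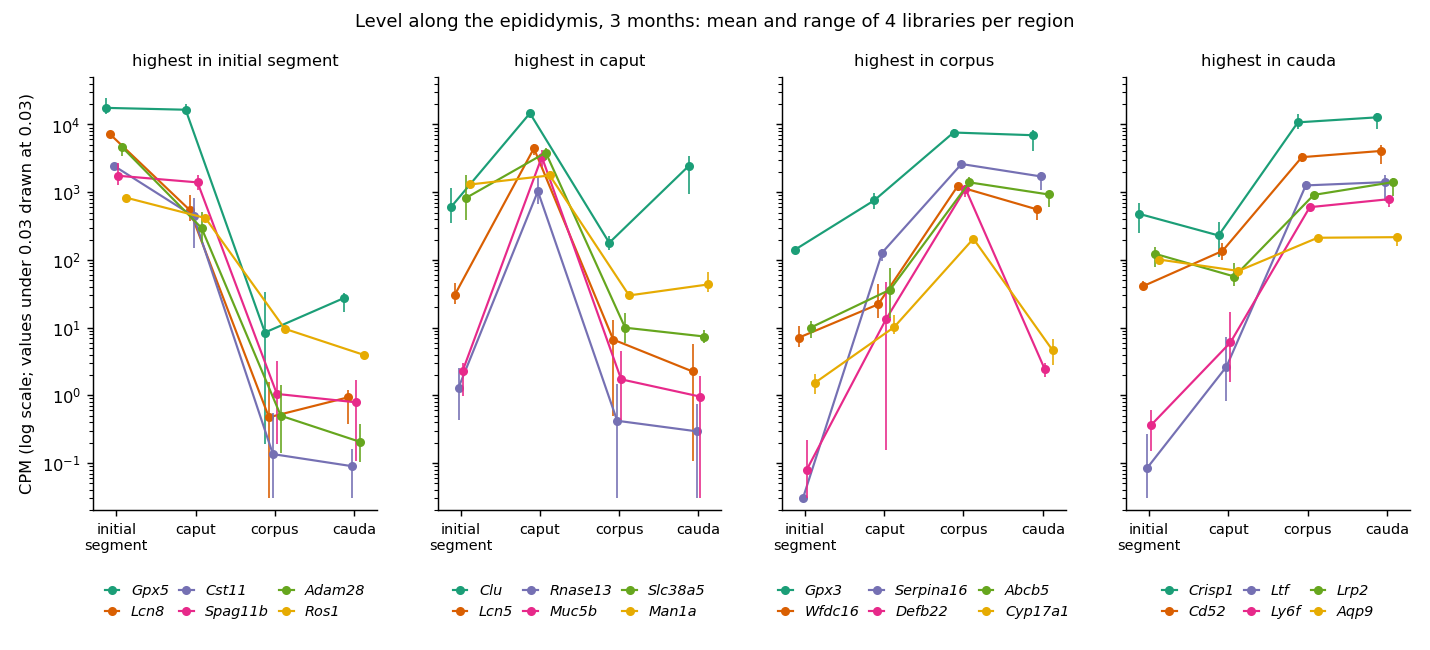
Points give mean levels (CPM, log axis) in 4 regions of the 3-month epididymis in the order of the duct, vertical lines the range of the 4 libraries, and panels sort 24 genes by the region with the highest mean. Genes of the left panels drop between caput and corpus (Gpx5 from 16504 to 8.46 CPM), and genes of the right panels rise (Crisp1 from 229.5 to 10743 CPM).

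The same contrast at 21 months used other mice and other libraries. There 3044 genes were higher in caput (12% of 25394 tested) and 3518 in corpus (13.9%), and with library size as the only scaling the counts were 5000 and 2340. Of the 3-month calls that were tested at both ages, 2039 of 2842 caput calls (71.7%) and 2155 of 2975 corpus calls (72.4%) were called in the same direction, with 11 and 1 in the opposite direction. Among genes of the secreted lists, 81 of the 88 caput calls and 70 of the 104 corpus calls were called again. Gpx5 averaged 18049 CPM in the 21-month caput and 0.768 CPM in the 21-month corpus. Slc38a5 averaged 3632 and 6.63 CPM, and Gpx3 averaged 744 and 7634 CPM, with a log2 fold change of 3.34 at both ages.

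For a minority of genes the size of the switch differed with age. The interaction of region and age passed the adjusted p limit for 1184 of 28040 tested genes (4.22%). The number moved with the fit and with single libraries. It was 2106 by DESeq2's Wald test and 257 with library size as the only scaling. With 1 library left out it was 2028 without 3-month caput library 1, 658 and 683 without 3-month corpus libraries 3 and 4, 536, 671 and 588 without 21-month caput libraries 1 to 3, and 551 and 774 without 21-month corpus libraries 1 and 4. Of the 1184, 689 were further to the caput side at 21 months and 495 further to the corpus side. Of 97 genes named above and checked, 20 passed, 16 of them further to the caput side at 21 months, and 9 of the 20 passed whichever library was left out. Of these 9, Adam7, Atp2b4, Clcn5, Cldn3 and Rnase12 did not pass with library size as the only scaling. They were picked on 3-month values that also enter this test. Among the 9, Crisp1 had means of 603 and 6980 CPM at 21 months, so its log2 fold change was smaller by 2.05 (-2.05, adjusted p = 0.019). Defb39, not called at 3 months, averaged 242 CPM in caput and 90.9 CPM in corpus at 21 months, a difference of -1.66 between the ages (adjusted p = 0.0017). Crisp4 showed the same course, with 157 and 60.2 CPM at 21 months (-1.13, adjusted p = 0.016), and so did Adam7, with 7073 and 2462 CPM (-0.88, adjusted p = 0.019). Rnase12 differed by -0.90, Defb20 by -1.77 and Clcn5 by -0.93. Atp2b4 (0.69) and Cldn3 (0.79) were further to the corpus side at 21 months. These 9 did not include Clu, whose means were 10252 and 276 CPM at 21 months, a difference of 1.10 (adjusted p = 0.026) that gave an adjusted p of 0.066 without 21-month corpus library 1.

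Traces of the other region's genes were uneven among libraries. Of 87 protein-coding genes at least 64-fold higher in caput, with 10 CPM or more there, the median level in corpus libraries 1 to 4 was 0.415, 0.289, 0.182 and 0.126% of the caput mean, and 58 of the 87 were highest in corpus library 1. The 87 summed to 358, 357, 272 and 222 CPM in these libraries, so by sum corpus libraries 1 and 2 were alike. Of 34 such genes higher in corpus, the median level in caput libraries 1 to 4 was 2.16, 0.403, 0.212 and 0.493% of the corpus mean, and 30 of the 34 were highest in caput library 1. The largest fold changes therefore depend on these libraries. Without corpus library 1, the log2 fold change of Gpx5 was -16.14 instead of -10.96, that of Rnase10 -13.55 instead of -10.09 and that of Spag11b -12.03 instead of -10.43. Without caput library 1, it was 9.01 instead of 6.34 for Defb22, 10.13 instead of 8.80 for Ltf and 8.50 instead of 7.21 for Defb43. Other fold changes also moved by over 1.5 times. Without corpus library 1, the log2 fold change went for Adam28 from -9.24 to -10.48, Bsph1 from -10.68 to -12.27, Cst11 from -11.69 to -15.79 and Lcn8 from -10.21 to -12.06, and for Lcn10 from -11.42 to -14.60, Muc5b from -10.94 to -12.05, Rnase13 from -11.32 to -13.89 and Teddm1b from -11.14 to -16.66. Bsph1, Cst11, Lcn10 and Teddm1b then had 0 counts in corpus, so the fit, not the counts, set the size of their new values. Without caput library 1, it went for Abcb5 from 5.26 to 5.88, Bsph2 from 7.24 to 9.09, Car4 from 5.80 to 6.56 and Defb38 from 7.50 to 8.95, and for Glb1l3 from 5.18 to 6.13, Ly6f from 6.56 to 7.88, Slc52a3 from 5.49 to 6.14, Spint3 from 6.23 to 7.49 and Wfdc16 from 5.79 to 6.38. Without corpus library 2, it went for Epp13 from -8.75 to -10.23 and Serpinf2 from -8.35 to -9.10. Of the 97 genes for which this was run, none changed direction or lost its call at 3 months when corpus library 1 or caput library 1 was left out. The source of these traces was not tested.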

How the data were processed

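Per the labels and the study's methods, total RNA of each region was made into stranded libraries and sequenced in pairs, reads were trimmed with cutadapt and aligned with HISAT2 to mm10, and HTSeq counted them per gene. Versions and counting options are not given in the sources used here. The authors deposited 1 table of raw counts, 53379 genes by 56 libraries, and these counts are the only values used. The methods name RNeasy columns and the labels TRIzol for the RNA. Groups came from the labels' tissue and age. Tested were genes whose counts summed to 10 or more over the 8 libraries, with edgeR 4.0.16 (R 4.3.3), TMM factors and the quasi-likelihood F-test, without a replicate block, and p-values were adjusted by the Benjamini-Hochberg method over all tested genes. A call needed an adjusted p below 0.05 and a 2-fold difference. Caput and corpus libraries came from the same mice and were fitted as independent, and p-values measure the spread between these samples. CPM values share 1 TMM scale over 24 libraries. The scripts were tested on simulated data. The members and the gene lists were chosen with earlier results of these data known. Named by rule were, in each direction, the 12 calls with the largest fold change (mean of 10 CPM or more, no overlap), the 12 with the largest difference in mean CPM and the 3 called members of each list with the largest difference, besides each list's most abundant member without a call, marker genes, Gm42418 and genes the study names. Other genes are said to be named after their values were seen or for their position. Some genes that the rule picks are not reported here. Promoters came from RefSeq tables (GRCm38.p6), with the first listed promoter taken for each gene. Depth was 13109573 to 18105867 counts per library, and the differences named far exceed counting error except at levels under 1 CPM. Alternatives tried were DESeq2 1.42.0, other scalings, other filters on low counts, other thresholds, a replicate block and leaving out each library in turn.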

Additional observations from a re-analysis of the deposited data

Results flagged for a closer look

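Some libraries stood apart from the other 3 of their group by Dixon's test at the 95% level. Of 193 groups of 4 checked over 97 named genes, 32 had such a library, where chance gives about 1 in 20 groups. That rate does not hold for Cst11, Teddm1b, Lcn10 and Bsph1 in corpus, which had 0 counts in the other 3 libraries, so that any read in the fourth sets it apart. Much of this lay with the libraries numbered 1, and the genes are not independent of each other. Corpus library 1 held traces of caput genes: Gpx5, the secreted glutathione peroxidase, was at 33.2 CPM against at most 0.242 CPM in the other corpus libraries. In the same library Spag11b was at 3.19 CPM, Lcn8 at 1.56 CPM, Teddm1b at 1.49 CPM, Rnase13 at 1.49 CPM, Adam28 at 1.42 CPM, Rnase10 at 1.22 CPM, Cst11 at 0.542 CPM, Lcn10 at 0.271 CPM and Bsph1 at 0.0678 CPM, each the highest of the corpus group. Spink8, a corpus-high protease inhibitor, was also highest there, at 3085 CPM.

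Caput library 1 held more of several genes of the corpus: Defb22 at 47.4 CPM, Wfdc16 at 43.8 CPM, Ly6f at 16.8 CPM, Spint3 at 8.42 CPM, Ltf (lactoferrin) at 7.20 CPM, Bsph2 at 3.67 CPM and Defb43 at 3.57 CPM. It was also highest for Abca3 at 276 CPM, Man2b1 at 239 CPM, Clcn7 at 169 CPM, Lrp2 (megalin) at 89.4 CPM and Cyp17a1 at 15.3 CPM, and lowest for Atp2b1, a plasma membrane calcium pump, at 240.1 CPM. The summed level of 34 protein-coding genes at least 64-fold higher in corpus was 168 CPM in caput library 1 and 16.1 to 37.9 CPM in the other caput libraries. The source of these transcripts was not tested.

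Other libraries stood apart for single genes. Caput library 3 was highest for Defb20 at 1487 CPM and Cst8 at 176 CPM and lowest for Ace, the angiotensin-converting enzyme, at 1771 CPM. Caput library 4 was highest for Hoxc10 at 0.230 CPM. Corpus library 2 was highest for Foxi1, a factor of clear cells, at 49.96 CPM. Corpus library 3 was lowest for Wfdc16 at 1053 CPM and Rnase4 was lowest in 1 corpus library at 46.0 CPM. Gm42418 reached 927520 CPM on the TMM scale in caput library 2, against 85159 CPM in the next.

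The difference between corpus and caput itself changed between 3 and 21 months for 20 of the named genes by the interaction term of edgeR's quasi-likelihood test, given here as the log2 difference at 21 months minus that at 3 months. It kept its adjusted p below 0.05 with each of the 16 libraries left out for 9 of them: Defb39 (-1.66, adjusted p = 0.0017), Clcn5 (-0.93, 0.0027), Rnase12 (-0.90, 0.0083), Atp2b4 (0.69, 0.012), Cldn3 (0.79, 0.016), Crisp4 (-1.13, 0.016), Defb20 (-1.77, 0.019), Crisp1 (-2.05, 0.019) and Adam7 (-0.88, 0.019). With library size as the only scaling, Adam7, Atp2b4, Clcn5, Cldn3 and Rnase12 lost it. The other 11 lost the call without at least 1 library. These were Defb38 (-3.16, adjusted p = 0.039), Bsph2 (-3.12, 0.031), Defb28 (-1.36, 0.034), Clu (1.10, 0.026), Atp6v1c2 (-1.06, 0.033), Rnase11 (-0.95, 0.044), Atp13a4 (-0.93, 0.046), Kcnc4 (0.87, 0.047), Cuzd1 (-0.76, 0.023), Slc16a10 (-0.76, 0.023) and Spink8 (-0.68, 0.045). Without caput 21-month library 2, the adjusted p of Defb38 was 0.131.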

How the results depend on the processing

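At 3 months, 95.1 and 90.9% of the caput and corpus calls were kept by DESeq2's Wald test, 94.96 and 86.1% with library size as the only scaling, 67.0 and 75.0% under edgeR's stricter count filter, which tests 18386 genes, and 86.0 to 92.0% with 1 library left out. 1 caput call changed sign, without caput library 2. Without a fold threshold 4869 and 5000 genes passed, and with a 4-fold threshold 1878 and 1433. With 1 library left out, 2865 to 3293 genes were higher in caput and 2719 to 3097 in corpus, and at 21 months 2840 to 3027 and 3210 to 3457. At 21 months, scaling by library size alone moved the median log2 fold change by -0.39 and gave 5000 genes higher in caput and 2340 in corpus, a caput share of 68.1% of calls against 46.4% with TMM. The number of genes whose regional difference changed with age was 2106 by DESeq2, 257 with library size alone and 536 to 2028 with 1 library left out, against 1184. It was 2028 without caput 3-month library 1, 658 and 683 without corpus 3-month libraries 3 and 4, 536, 671 and 588 without caput 21-month libraries 1 to 3, and 551 and 774 without corpus 21-month libraries 1 and 4. At an unadjusted p below 0.05 it was 5669. The cause of these shifts was not tested. Gm42418, not called with all libraries (log2 fold change -0.49), was at 1.52 without caput library 2 and at -0.88 to -0.26 without any other 1 library. Of the list counts recomputed under the alternatives, 663 stayed within 1.5 times and 9 did not, in the lipocalins, serpins and ABC transporters. Replicate numbers are not known to mark mice: deviations of same-numbered caput and corpus libraries correlated at 0.350, 0.162, 0.0386 and 0.337, and 3 of 4 caput libraries were closest to the corpus library of their own number. A fit with the replicate number as a block called 3135 and 2996 genes at 3 months, 2933 and 3302 at 21 months and 2489 for the change with age. Levels under 1 CPM rest on few counts, which limits fold changes of genes nearly absent from 1 region.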
